A study of Mus musculus with 10 samples.

Results

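The genes described here are 50 mouse homeobox and Pax genes, chosen by name as transcription factors that give cells a regional identity. A peak was counted for a gene when its summit, the position of highest pileup, lay in the gene or within 5 kb of it in a RefSeq gene table of GRCm38.p6, the same sequence build as the mm10 of the files. All 50 were found among the 21887 protein-coding genes of that table. Their peaks numbered 214 of 104316 in the deposited list of deleted females, 250 of 130103 in that of control females, 183 of 88159 in that of deleted males and 200 of 101322 in that of control males. Merged over the 4 lists, these peaks formed 295 sites of 150516 in all. For description, the genes were set in 4 groups by textbook use: 18 forebrain genes, 18 genes of the midbrain, hindbrain or spinal cord (called caudal), 11 genes used mainly outside the nervous system and 3 TALE cofactors (Meis1, Meis2 and Pbx3).

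Open chromatin was mapped with ATAC-seq, a method that uses the Tn5 transposase to place sequencing adapters in accessible DNA, in C57BL/6 neural stem cell lines. All lines were made from E14.5 embryos with floxed alleles (fl/fl) of Smchd1, which encodes a chromatin protein of the SMC family. Per the labels the groups were 3 Smchd1 del/del female libraries, 3 Smchd1 fl/fl female libraries, 2 Smchd1 del/del male libraries and 2 Smchd1 fl/fl male libraries. The protocol given for all 10 samples names transduction with the retrovirus MSCV-Cre-puro, puromycin from 24 h and harvest at 7 days, and the sources used here do not say which vector, if any, the fl/fl cells received. The brain region of origin is not given either. One label field of the male samples calls them female, against their title and sex field. Each group has 1 peak list called on its pooled libraries. No value therefore has a replicate error, no difference was tested between replicates, and the lines behind 1 list cannot be told apart.

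Homeobox genes encode proteins that bind DNA through a homeodomain, and Pax proteins bind through a paired domain. In the embryonic brain and spinal cord, secreted signals switch these genes on in bands along the head-to-tail and back-to-belly axes, and pairs of such factors repress each other at the borders. Their promoters are mostly rich in CpG dinucleotides, and in cells where the genes are silent they are classic targets of Polycomb repression.

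The promoter sequences of 7 members show how start regions with and without a peak are built. Lhx2, Meis1 and Nkx6-1 had the strongest start peaks among members with a RefSeq promoter sequence and a peak in all 4 lists. Pax6, Pax5 and Six6, 3 of 8 such members, had no peak at a start in any equal-length list, and Irx2 was added after its values were seen, since a site at its start changed in rank. Each run is 300 bases, 250 before and 50 after a RefSeq start (GRCm38.p6), 5′ to 3′ on the gene's strand, with CpG dinucleotides in capitals.
Lhx2, chr2:38351058-38351357, + strand: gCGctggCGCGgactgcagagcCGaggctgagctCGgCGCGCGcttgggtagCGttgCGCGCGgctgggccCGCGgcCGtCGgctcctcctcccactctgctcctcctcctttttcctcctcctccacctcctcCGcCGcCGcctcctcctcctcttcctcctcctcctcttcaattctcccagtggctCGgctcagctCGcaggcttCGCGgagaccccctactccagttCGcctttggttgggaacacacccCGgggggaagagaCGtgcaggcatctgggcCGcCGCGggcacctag
Meis1, chr11:19018920-19019219, − strand: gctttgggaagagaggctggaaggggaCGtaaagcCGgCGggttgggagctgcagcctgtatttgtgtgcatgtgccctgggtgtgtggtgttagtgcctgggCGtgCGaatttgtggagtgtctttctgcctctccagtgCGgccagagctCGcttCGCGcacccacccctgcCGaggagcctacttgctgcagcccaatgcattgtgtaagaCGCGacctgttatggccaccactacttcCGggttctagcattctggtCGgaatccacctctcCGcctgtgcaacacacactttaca
Nkx6-1, chr5:101664662-101664961, − strand: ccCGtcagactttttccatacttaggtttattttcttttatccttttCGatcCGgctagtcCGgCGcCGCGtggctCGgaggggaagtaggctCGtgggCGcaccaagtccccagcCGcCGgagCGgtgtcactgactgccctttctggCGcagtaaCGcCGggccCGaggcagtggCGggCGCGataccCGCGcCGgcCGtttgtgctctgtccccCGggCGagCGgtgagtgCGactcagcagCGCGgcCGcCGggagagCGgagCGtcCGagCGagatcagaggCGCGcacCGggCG
Pax6, chr2:105682213-105682512, + strand: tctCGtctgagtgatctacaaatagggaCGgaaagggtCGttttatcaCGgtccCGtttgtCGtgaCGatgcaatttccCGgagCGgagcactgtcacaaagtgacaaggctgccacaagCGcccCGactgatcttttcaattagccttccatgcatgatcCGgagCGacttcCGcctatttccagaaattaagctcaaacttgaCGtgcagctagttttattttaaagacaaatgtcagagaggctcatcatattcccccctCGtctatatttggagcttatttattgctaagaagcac
Pax5, chr4:44710645-44710944, − strand: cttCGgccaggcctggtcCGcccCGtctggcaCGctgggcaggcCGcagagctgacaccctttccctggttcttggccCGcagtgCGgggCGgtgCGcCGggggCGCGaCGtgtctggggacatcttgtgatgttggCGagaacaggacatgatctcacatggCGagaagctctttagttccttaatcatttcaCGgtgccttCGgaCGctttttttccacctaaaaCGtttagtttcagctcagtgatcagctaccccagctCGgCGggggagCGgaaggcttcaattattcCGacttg
Six6, chr12:72939632-72939931, + strand: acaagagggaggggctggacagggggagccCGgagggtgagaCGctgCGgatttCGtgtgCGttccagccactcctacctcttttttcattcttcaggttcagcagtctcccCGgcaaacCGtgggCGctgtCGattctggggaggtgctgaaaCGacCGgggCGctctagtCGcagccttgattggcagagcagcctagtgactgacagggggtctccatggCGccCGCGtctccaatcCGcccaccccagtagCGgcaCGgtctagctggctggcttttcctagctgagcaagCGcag
Irx2, chr13:72628570-72628869, + strand: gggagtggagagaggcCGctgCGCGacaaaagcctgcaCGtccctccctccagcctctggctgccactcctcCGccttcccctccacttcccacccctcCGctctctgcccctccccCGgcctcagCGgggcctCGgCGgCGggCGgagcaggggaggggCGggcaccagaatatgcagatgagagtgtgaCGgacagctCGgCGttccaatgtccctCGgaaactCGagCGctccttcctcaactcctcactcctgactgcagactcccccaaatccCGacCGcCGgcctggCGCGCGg
The window of Nkx6-1 held 40 CpG, that of Lhx2 29, that of Irx2 25, that of Pax5 23, that of Six6 20, that of Pax6 16 and that of Meis1 15. The CpG numbers of the windows without a peak thus lay within the range of those with one. The printed Pax6 window lies inside the gene. Pax6 has another RefSeq start, at the end of the gene (chr2:105668896), whose window held 18 CpG and had no peak either.

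The lists rested on 139318421 tags in deleted females, 144613215 in control females, 74674218 in deleted males and 91734730 in control males, with a tag size of 63, 53, 59 and 62 bp in that order. Because list length moves with depth, each list was trimmed to the size of the shortest, 88159 peaks, by the authors' −log10 q (the equal-length lists). Rank 1 is the strongest peak of a list, and fold enrichment is the authors' own value per peak over the local background. Its median was 3.68 in deleted females, 4.13 in control females, 4.29 in deleted males and 4.55 in control males. Fold enrichments printed for different lists are therefore not directly comparable. At the end of the equal-length lists the −log10 q was 4.27 in deleted females, 6.59 in control females, 1.39 in deleted males and 4.52 in control males, so the weakest peaks are least certain in deleted males. The label was checked on markers: a summit lay within 1 kb of the start of 10, 9, 10 and 10 of 10 neural stem cell genes in the deleted female, control female, deleted male and control male lists, among them Sox2, Nes and Fabp7. The same count was 0 of 5 in every list for blood and microglia, 4, 3, 4 and 4 of 5 for neurons, 2, 2, 2 and 1 of 4 for endothelium, and 3 of 4 in every list for fibroblasts. Over all protein-coding genes the share was 65.5%, 64.8%, 65.2% and 64.6% in that order. The fibroblast counts lay above it too, as did the neuron counts in every list but that of control females. The check therefore separates the cell types only in part. An open start is not expression, and the part of other cell types in the results was not tested.

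Peak numbers of the 50 genes were close between genotypes. The equal-length lists held 169 member peaks in deleted females against 163 in control females, a log2 ratio of 0.05 (95% exact binomial interval −0.27 to 0.37), and 183 in deleted males against 163 in control males, a log2 ratio of 0.17 (−0.15 to 0.48). Both intervals include 0. They cover counting error only, and they ignore that most peaks are common to both lists. Over all protein-coding genes the numbers were 54834 in deleted females against 55776 in control females (log2 ratio −0.02, −0.04 to −0.01), and 56147 in deleted males against 55447 in control males (0.02, 0.00 to 0.04). Among peaks with a −log10 q of at least 10 the member ratio was −0.45 in females, with 82 deleted against 112 control peaks, and −0.31 in males, with 75 against 93. Under that limit the whole lists are unequal too, with 53267 deleted against 67907 control peaks in females (log2 ratio −0.35) and 47094 against 56781 in males (−0.27). In the bulk lists, a site open in few cells and a site weakly open in all cells cannot be told apart.

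The members had 3.38 peaks per gene in deleted females, 3.26 in control females, 3.66 in deleted males and 3.26 in control males, with a median of 3 in each list. Protein-coding genes averaged 2.88, 2.93, 2.97 and 2.92 in the same order, with a median of 2. Genes without any peak were rarer among members, at 3, 2, 0 and 2 of 50, against 19.9%, 20.5%, 20.4% and 20.9% of protein-coding genes. Every member therefore had a peak in the gene or within 5 kb of it in at least 1 list, the genes of spinal cord, kidney or heart included. For the heart gene Nkx2-5 this was 1 weak peak, at rank 86614 in deleted males, near the end of that list. Peaks in the flank are counted as well, and these need not belong to the member.

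**Figure D1:**
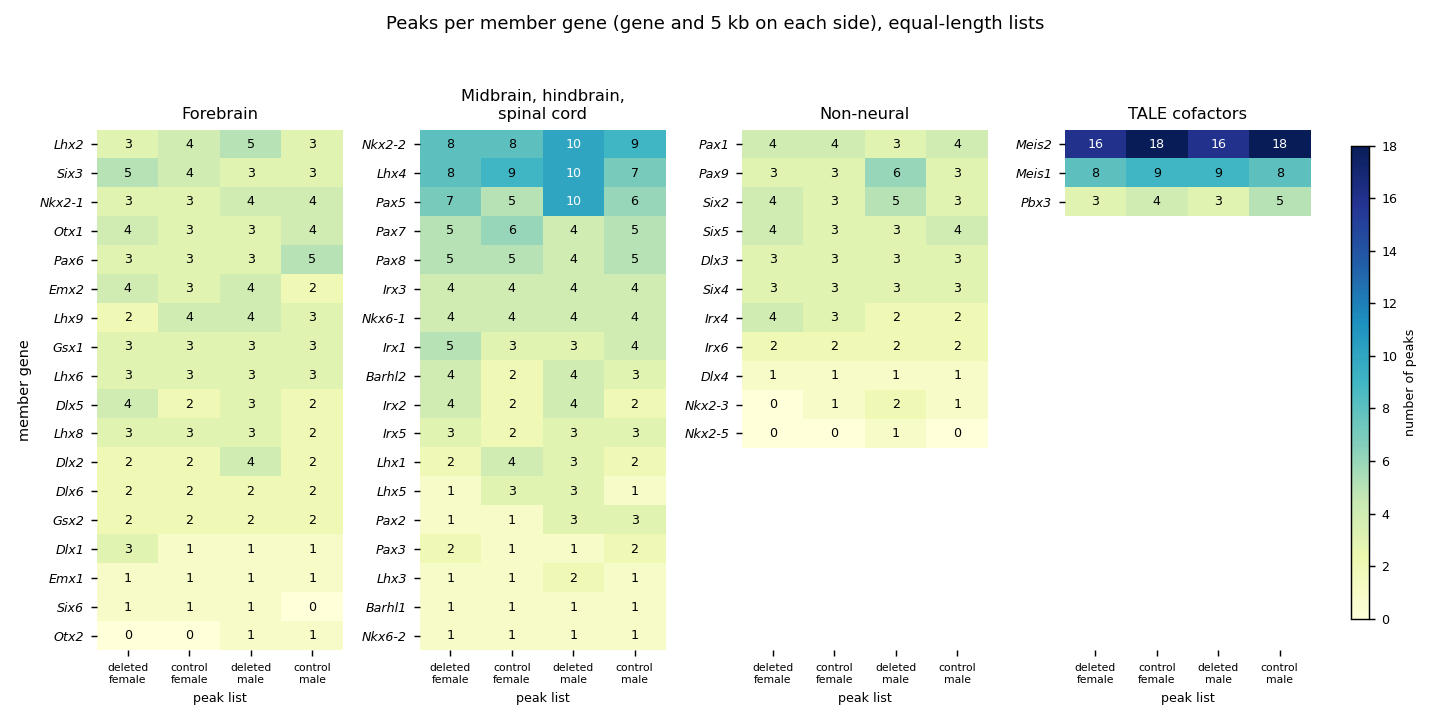
Number of peaks in each of the 50 genes and 5 kb on each side (rows, by group) in the 4 equal-length lists (columns), with colour from 0 to 18 peaks. Meis2 has the most in every list, at 16 or 18, and most forebrain and non-neural genes have 1 to 5.

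Forebrain genes as a group had 48 peaks in deleted females against 44 in control females, a log2 ratio of 0.13 (−0.50 to 0.75), and 50 in deleted males against 43 in control males, a log2 ratio of 0.22 (−0.40 to 0.84). Lhx2, a LIM homeobox gene needed for cortex and eye, had 3 peaks in deleted females, 4 in control females, 5 in deleted males and 3 in control males. Six3, which sets the anterior forebrain and eye field, had 5, 4, 3 and 3 peaks in the same order of lists. Nkx2-1, the factor of the medial ganglionic eminence and hypothalamus, had 3, 3, 4 and 4. Otx1, a forebrain and midbrain gene, had 4, 3, 3 and 4. In these 4 genes the deleted and control lists of a sex differed by at most 2 peaks. Pax6, the factor of dorsal cortical progenitors and eye, had 3 peaks in 3 lists and 5 in control males. Emx2, a dorsal telencephalic gene, had 4 in deleted females against 3 in control females, and 4 in deleted males against 2 in control males.

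Among the Dlx genes, which drive ventral forebrain and interneuron development, Dlx5 had 4 peaks in deleted females against 2 in control females and 3 in deleted males against 2 in control males. Dlx1 had 3, 1, 1 and 1 peaks and Dlx2 had 2, 2, 4 and 2 in deleted females, control females, deleted males and control males, while Dlx6 had 2 in every list. Gsx1 and Lhx6 had 3 in each list, Gsx2 had 2 and Emx1 had 1. Lhx9 had 2, 4, 4 and 3 peaks and Lhx8 had 3, 3, 3 and 2. The sparsest were Six6, an eye and pituitary gene with 1, 1, 1 and 0 peaks, and Otx2, a gene needed for forebrain and midbrain formation, with 0, 0, 1 and 1. Six6 was the only member without a peak in a deposited list, that of control males. Over the 18 forebrain genes, Emx2 and Dlx5 had more peaks after deletion in both sexes (11.1%), 0 had fewer in both, and 7 were equal in both (38.9%). The shares over 18077 protein-coding genes with a peak were 8.07%, 8.45% and 35.2%. In the deposited lists neither Emx2 nor Dlx5 had more peaks after deletion in either sex. Emx2 had 5, 5, 4 and 4 and Dlx5 had 4, 5, 3 and 3 in the same order of lists.

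The strongest forebrain site of the deleted lists lay at a start of Lhx2, chr2:38350796-38352221 in mm10, with its summit 233 bp upstream of the start whose window is printed above. It ranked 8203 in deleted females against 13478 in control females and 8171 in deleted males against 13984 in control males, with fold enrichments of 5.21, 4.73, 6.47 and 5.55 in that order of lists. The end of the noncoding gene Gm27197 lies within 1 kb, so the site cannot be given to Lhx2 alone. The strongest Pax6 site, chr2:105674485-105675742, was ahead of it in the control lists. It lay inside the gene, 6.62 kb from the nearest RefSeq start, and ranked 10665, 11682, 11130 and 11188 in deleted females, control females, deleted males and control males. Pax6 thus held a strong site at nearly the same rank in every list, with no peak at a listed start. Gsx1, a ventral progenitor gene, had its summit 5 bp from its start (chr5:147188477-147189265) and ranked 16828, 18320, 15883 and 20040 in the same order. Emx2 ranked 23557, 22003, 20877 and 16455 at its start, beside an end of the antisense gene Emx2os, and Dlx1 ranked 28670, 29519, 29764 and 30952, beside Dlx1as.

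The caudal genes had 66 peaks in deleted females against 62 in control females (log2 ratio 0.09, −0.43 to 0.61) and 74 in deleted males against 63 in control males (0.23, −0.27 to 0.74). Nkx2-2, a ventral spinal cord and oligodendrocyte factor, had 8 peaks in deleted females, 8 in control females, 10 in deleted males and 9 in control males. Lhx4, a motor neuron and pituitary gene, had 8, 9, 10 and 7 in the same order. Pax5, a midbrain–hindbrain boundary and B-cell gene, had 7 in deleted females against 5 in control females, and 10 in deleted males against 6 in control males. Pax7, a dorsal neural tube and muscle stem cell gene, had 5, 6, 4 and 5. The 4 genes with the most caudal peaks thus moved in different directions. Of all members, Pax5 and Irx2 alone had at least 2 more peaks after deletion in both sexes, 2 of 50, against a background of 1.32% of 18077 protein-coding genes with a peak. Irx2, an Iroquois gene of the hindbrain and spinal cord, had 4 in deleted females against 2 in control females and 4 in deleted males against 2 in control males. Neither gene met that difference in the lists as deposited, where the count was 0.

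The other caudal genes had 5 peaks or fewer in every list. Pax8 had 5, 5, 4 and 5 peaks in deleted females, control females, deleted males and control males, and Irx1 had 5, 3, 3 and 4. Irx3, a spinal progenitor gene, and Nkx6-1, which specifies ventral progenitors, had 4 in every list. Barhl2 had 4 peaks in deleted females against 2 in control females and 4 in deleted males against 3 in control males. Irx5 had 3, 2, 3 and 3 peaks, Lhx1 had 2, 4, 3 and 2, and Lhx5 had 1, 3, 3 and 1. Pax2 had 1, 1, 3 and 3 peaks (6, 9, 3 and 5 in the deposited lists), Pax3 had 2, 1, 1 and 2, and Lhx3 had 1, 1, 2 and 1. Barhl1 and Nkx6-2 had 1 in each list.

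Per gene, the forebrain group held fewer peaks on average than the caudal group in all 4 lists. The means were 2.67 against 3.67 in deleted females and 2.44 against 3.44 in control females. In males they were 2.78 against 4.11 in the deleted list and 2.39 against 3.5 in the control list. The medians were 3 against 4, 3 against 3, 3 against 3.5 and 2 against 3 in the same order. The log2 ratio of forebrain to caudal was −0.46 (−1.03 to 0.10) in deleted females, −0.49 (−1.09 to 0.09) in control females, −0.57 (−1.11 to −0.03) in deleted males and −0.55 (−1.15 to 0.03) in control males. The interval left out 0 in deleted males alone, and in 0 of the lists with a 10 kb flank, among the strongest 44079 peaks, or without the members used in more than 1 region. Leaving those members out removes more caudal than forebrain genes. With a −log10 q of at least 10 it left out 0 in 3 lists. The direction of the means was the same in every list and setting, with ratios from −1.09 to −0.30. The lists share many peaks, so they do not repeat the result independently, and the intervals treat the peaks of a gene as independent. The difference was not read per length, and the longest genes of these groups are caudal. Pax5 (186 kb), Pax7 (96.5 kb), Pax3 (95.9 kb) and Pax2 (91.7 kb) are caudal, while the longest forebrain gene, Lhx2, spans 30.5 kb. The means per gene are therefore no measure of peaks per kb, and the part of gene length was not tested.

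A strong caudal site stood at each of several genes in all lists. The strongest member site of all in 3 of the lists, chr11:84513056-84514019, lay in the flank of Lhx1, 11.98 kb from its start, and ranked 4173 in deleted females, 2615 in control females, 3977 in deleted males and 4225 in control males. It lies at an end of Aatf, a protein-coding neighbour, and cannot be given to Lhx1. Inside Pax7, 61.6 kb from the start, chr4:139771007-139771707 ranked 13234 in deleted females against 8108 in control females and 8922 in deleted males against 7140 in control males. Inside Pax5, 6.15 kb from the start and beside the noncoding gene 5730488B01Rik, chr4:44703363-44704877 ranked 12991, 11524, 7839 and 16217 in the same order. The deleted list was the stronger at this site in males and the weaker in females. The 10 Pax5 peaks of deleted males included summits 185 kb and 174 kb from the start that no other list had.

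Genes used mainly outside the nervous system had 28 peaks in deleted females against 26 in control females (log2 ratio 0.11, −0.72 to 0.93) and 31 in deleted males against 26 in control males (0.25, −0.55 to 1.06). Pax1, a gene of the vertebral column, had 4 peaks in deleted females, 4 in control females, 3 in deleted males and 4 in control males. Pax9, a tooth and pharyngeal pouch gene, had 3, 3, 6 and 3 in the same order. Six2, which maintains kidney progenitors, had 4 in deleted females against 3 in control females and 5 in deleted males against 3 in control males, and Six5 had 4, 3, 3 and 4. Per gene the group averaged 2.55 peaks in deleted females, 2.36 in control females, 2.82 in deleted males and 2.36 in control males, close to the forebrain group. Dlx3 and Six4 had 3 peaks in every list, Irx6 had 2, Dlx4 had 1 and Irx4 had 4, 3, 2 and 2. Nkx2-3 had 0, 1, 2 and 1, and Nkx2-5, the heart factor, had 1 peak in deleted males and 0 in the other equal-length lists. The Irx6 site chr8:92673381-92674157, 598 bp from an end of the gene, was among the strongest of the members, at rank 12173 in deleted females against 7287 in control females and 7374 in deleted males against 10028 in control males.

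The TALE cofactors, whose proteins bind DNA together with Hox and other homeodomain proteins, had 27 peaks in deleted females against 31 in control females (log2 ratio −0.20, −1.0 to 0.59) and 28 in deleted males against 31 in control males (−0.15, −0.94 to 0.64). Meis2 had 16 peaks in deleted females against 18 in control females and 16 in deleted males against 18 in control males. It was the only member with at least 2 fewer in both sexes, 1 of 50, against a background of 1.8%. Meis1 had 8, 9, 9 and 8 and Pbx3 had 3, 4, 3 and 5 in deleted females, control females, deleted males and control males. Meis2 and Pbx3 are of like length, 206 kb and 201 kb, and differed several-fold in peaks. The cofactor site with the highest fold enrichment in 3 of the lists lay inside Meis1, 77.8 kb from its start (chr11:18940931-18941360), at 7.56 in deleted females, 9.52 in control females, 11.02 in deleted males and 12.1 in control males. It ranked 9496 in deleted females against 5350 in control females and 6967 in deleted males against 4146 in control males, weaker after deletion in both sexes by less than 2-fold, and by more than 2-fold when ranked by fold enrichment. Inside Meis2, 125 kb from its start, chr2:115939041-115939637 ranked 8158, 10862, 9173 and 12889 in the same order of lists, and at 7.88 it had the highest fold enrichment of the cofactor sites in deleted females.

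Members had a start peak about as often as other genes, but a weak one. A summit lay within 1 kb of a start of 35 members in deleted females (70%, background 65.5% of protein-coding genes), 35 in control females (70%, background 64.8%), 37 in deleted males (74%, background 65.2%) and 36 in control males (72%, background 64.6%). The median rank of these peaks was 35126, 38980, 35338 and 41843.5 in that order, against 12043, 12034, 11573 and 12322 over protein-coding genes. RefSeq gave a start with strand for 39 members, and for the other 11 either end of the gene was taken. A start peak stood in all 4 lists for 30 members and in some lists for 12. In none was there one, at the starts used, for Pax5, Pax6, Pax7, Pax8, Barhl1, Meis2, Six6 and Nkx2-5. The RefSeq start of Meis2 lies inside the gene. A site 2.64 kb upstream of it, also inside the gene, ranked 11259, 13327, 7959 and 11153 in the same order of lists. With either end of every gene taken as a start, 35, 33, 40 and 38 members had a start peak in that order. A summit can fall outside 1 kb in a wide peak: at Pbx3 the peak chr2:34371607-34373452 overlapped in all 4 lists, and its summit met the limit in 2. Otx2 had a start peak in the male lists alone, at rank 58549 in deleted males and 56038 in control males.

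Member promoters were rich in CpG, and those that were CpG-rich often lacked a start peak. Over the 51 RefSeq promoter windows of 39 members, the median CpG observed over expected was 0.698, against 0.567 over 21263 windows of protein-coding genes, and the GC content was 59.7% against 56.3%. A value of at least 0.6, called CpG-rich here, was met by 34 member windows (66.7%) against 47.7% of all. Of those 34 a summit lay within 1 kb of the start for 22 in deleted females (64.7%, background 96.2%), 23 in control females (67.6%, background 95.9%), 23 in deleted males (67.6%, background 96.3%) and 23 in control males (67.6%, background 95.9%). Their median rank was 31250.5, 38188, 35338 and 32440 in that order, against 9662, 9930, 9329 and 10380 for all CpG-rich windows. The lower share was found in both genotypes and both sexes. It is a description without a test, and some members have several windows that share a gene. The letters TAATTA, a homeodomain core motif that reads the same on both strands, stood in 4 member windows (7.84%), of Barhl1, Emx2 and Otx2, against 4.53% of all windows.

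**Figure D2:**
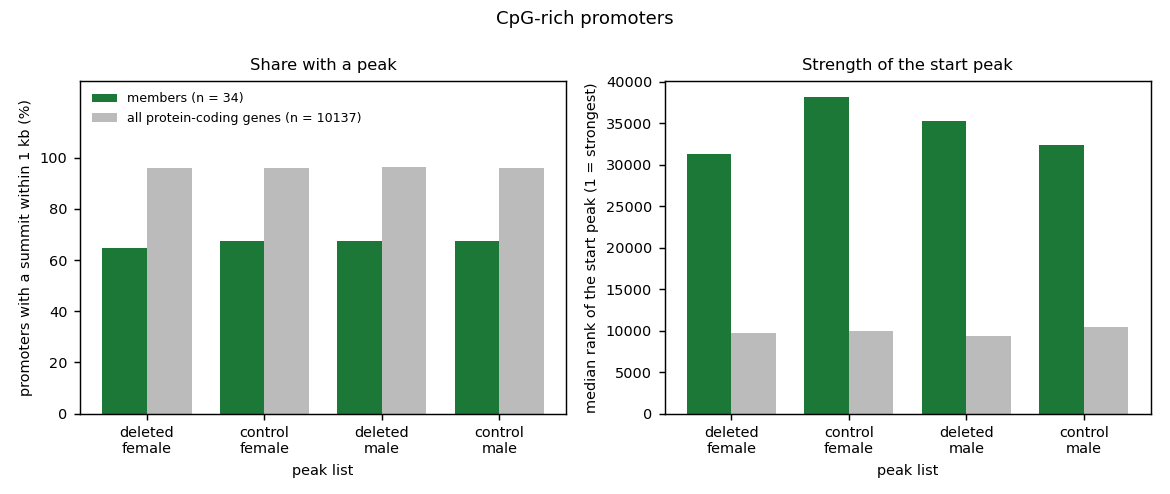
CpG-rich promoter windows of members (green, 34) and of protein-coding genes (grey, 10137) in the 4 equal-length lists. Left, the share with a summit within 1 kb of the start (%), 64.7% to 67.6% for members and 95.9% to 96.3% for all; right, the median rank of those peaks (1 is strongest), 31250.5 to 38188 for members and 9329 to 10380 for all.

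No member peak met the rule for a lost or gained peak. Under that rule a lost peak ranks within the first 44079 of the control list and shares no base pair with any of the 88159 peaks of the deleted list, and a gained peak is the mirror image. In females 0 of 61 member candidates were lost (background 0.44%) and 0 of 71 were gained (background 1.13%). In males 0 of 62 were lost (background 1.09%) and 0 of 66 were gained (background 0.837%). A count of 0 allows a share of up to 4.92%, 4.23%, 4.84% and 4.55% in that order, and the background shares would give 0.268, 0.805, 0.677 and 0.553 peaks, so the count of 0 does not set the members apart. With peaks ranked by pileup in place of −log10 q, lost member peaks were 4 of 86 in females (4.65%, background 1.71%) and 3 of 80 in males (3.75%, background 1.81%). Gained member peaks were then 1 of 85 in females (1.18%, background 1.24%) and 1 of 81 in males (1.23%, background 1.23%).

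Member sites were as shared between lists as other sites. Of the 295 sites, 136 were in all 4 deposited lists (46.1%, against 45.5% of all sites) and 80 in 1 list alone (27.1% against 29.8%). Sites in both deleted lists and neither control list numbered 2 (0.678%, background 0.984%), 8.72 kb upstream of an Lhx4 start and 3.42 kb upstream of the Irx2 start. Each of these lay inside the gene, which extends upstream of the RefSeq start used. Both were weak: the Lhx4 site ranked 67081 in deleted females and 71290 in deleted males, and the Irx2 site 70066 and 46082. In both control lists and neither deleted list there were 16 (5.42%, background 5.59%), with 4 at Meis2, 2 each at Nkx6-1 and Pbx3, and 1 each at Meis1, Pax2, Pax8, Lhx6, Lhx9, Dlx3, Gsx2 and Barhl2. The strongest of the 16 lay 4.96 kb upstream of Nkx6-1, at rank 51588 in control females and 54005 in control males. Both shares were near the background, and the control lists as deposited are the longer in each sex.

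Of 120 member sites in all 4 equal-length lists, 39 lay within 1 kb of a start, 54 elsewhere inside a gene and 27 in a flank. Their median rank was 42046.5 in deleted females, 43048 in control females, 42560.5 in deleted males and 43515.5 in control males, against 32151, 31772, 32224 and 31951 over 63331 such sites. The median log2 ratio of the deleted to the control rank was −0.06 in females and −0.03 in males, against 0.03 and 0.00 over all sites. The rank was at least 2-fold better after deletion in both sexes at 2 member sites (1.67%, background 0.628%), at Irx2 and Nkx6-1, and at least 2-fold worse in both at 0 (background 0.339%). A count of 2 sites is too small to set the members apart from other sites.

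The Irx2 site, chr13:72628076-72629448, had its summit 100 bp upstream of the start, in the window printed above. It ranked 12023 in deleted females against 35504 in control females and 15169 in deleted males against 30368 in control males, so the control rank was 2.95 and 2.00 times the deleted rank. Fold enrichments were 4.88 in deleted females, 3.86 in control females, 5.42 in deleted males and 4.56 in control males. The male ratio lay just past the limit of 2, and an end of the noncoding gene Gm20554 lies within 1 kb. At Nkx6-1 the site chr5:101665253-101665597 had its summit 683 bp upstream of the start. It ranked 8311 in deleted females against 23951 in control females and 10615 in deleted males against 22153 in control males, ratios of 2.88 and 2.09. Its fold enrichments were 5.63, 4.65, 6.55 and 5.32 in deleted females, control females, deleted males and control males. Ranked by fold enrichment, both sites kept a better rank in the deleted lists, but the male ratios were 1.47 at Irx2 and 1.70 at Nkx6-1, under the limit. Just under the limit by −log10 q was a Meis2 site, chr2:116065558-116066230, inside the gene and 1.17 kb upstream of its RefSeq start. It ranked 7284 in deleted females against 14301 in control females and 7545 in deleted males against 14723 in control males.

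**Figure D3:**
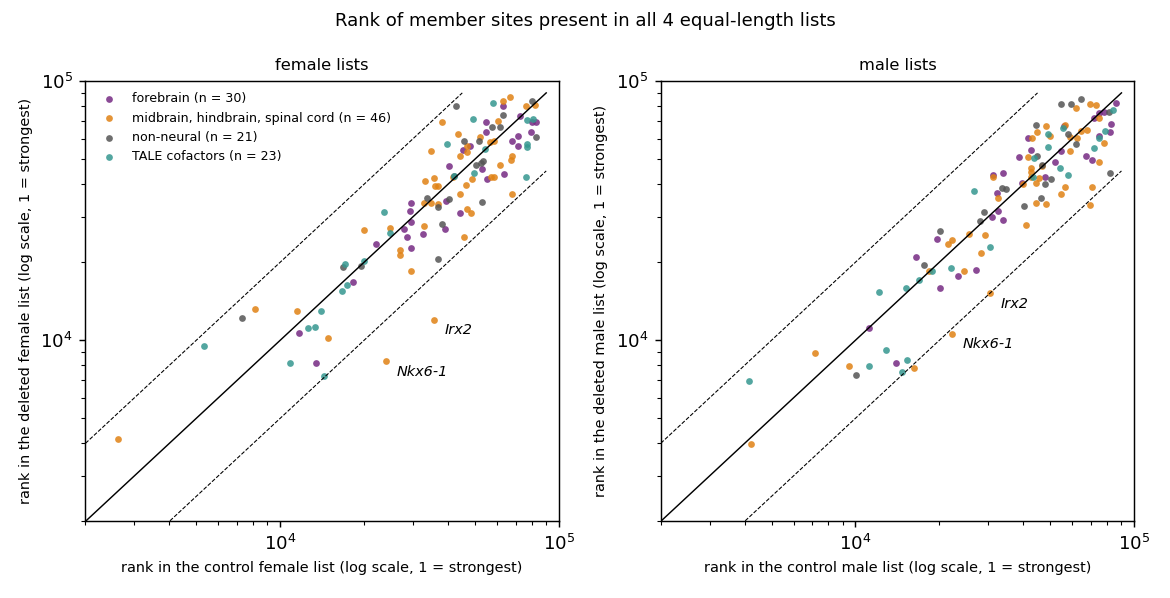
Rank by −log10 q of the 120 member sites present in all 4 equal-length lists, in the control list (x axis) and the deleted list (y axis) of females (left) and males (right), on log scales with 1 as the strongest, coloured by group. The solid line marks equal ranks and the dashed lines a 2-fold difference; most points lie between the dashed lines, and the named Irx2 and Nkx6-1 sites are the only points below them in both panels.

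Neighbouring sites of these 3 genes were weaker in most cases. At Nkx6-1 another site 1.31 kb inside the gene ranked 18568 in deleted females against 29377 in control females and 25414 in deleted males against 29146 in control males, and the site 4.96 kb upstream was in the control lists alone. At Irx2 the start site stood beside 3 weaker sites, each in 2 or 3 of the equal-length lists. In the deposited lists the one 4.72 kb upstream ranked 58114 in deleted females against 102301 in control females and 44456 in deleted males against 52400 in control males. The one 3.08 kb downstream ranked 73671 in deleted females against 85640 in control females and 72199 in deleted males against 93017 in control males, so all Irx2 sites found in both genotypes had the better rank in the deleted lists. At Meis2 a site 2.64 kb upstream of the RefSeq start lay inside the gene, beside the noncoding gene G630016G05Rik. It ranked 11259 in deleted females against 13327 in control females and 7959 in deleted males against 11153 in control males. Depth and tag size differ between the genotypes compared, and their part in these rank differences was not tested.

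**Figure D4:**
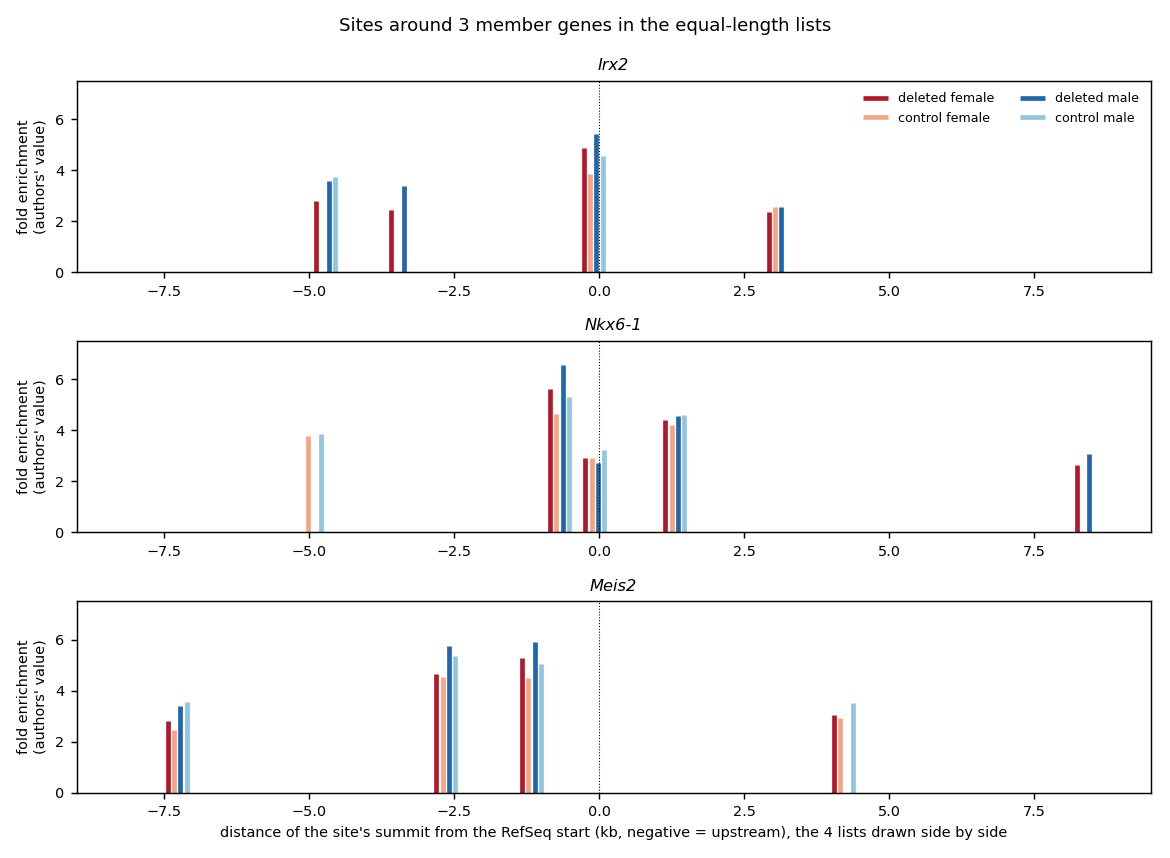
Sites within 10 kb of the start of Irx2, Nkx6-1 and Meis2: distance of the summit from the RefSeq start (kb, negative is upstream) against the authors' fold enrichment, 1 bar for each equal-length list that holds the site, drawn side by side for clarity. The start site of Irx2 stands at 4.88 in deleted females and 3.86 in control females, and the upstream site of Nkx6-1 at 5.63 and 4.65. Bar heights of different lists are not directly comparable.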

How the data were processed

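ATAC-seq was run on 10 libraries of neural stem cell lines. The submitters' processing notes list Bowtie2 2.2.5, Trim Galore 0.4.0, MACS2, Picard, SAMtools, bcl2fastq and edgeR, and the build mm10, with no roles. Peaks were called with MACS 2.1.0.20140616, per the file headers, from 1 pooled alignment for each group. No control sample was used, tags were shifted by 75 bp and extended to 150 bp, and the q-value had to be at most 0.05. The deposited pileup is each peak's signal height, the fold enrichment is the authors' ratio over local background, and the −log10 q values are the authors' own.

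Peaks outside chromosomes 1 to 19, X and Y were left out, and the rest ranked by −log10 q. Counts per gene used the gene and 5 kb on each side in RefSeq GRCm38.p6. Promoter sequences are from RefSeq, build GRCm38.p6, and matched 39 of the 50 members. Ratios are given with exact binomial intervals. With 1 list per group there was no test between groups. The members, groups and lists were chosen with earlier results of these data known. One list of other regional factors is not reported here. Every member is named by its peak number. Described in full are the 4 members with the most peaks per group and those that differed by at least 2 peaks in both sexes. The lost and gained rule was checked on simulated data, made from the control female list by adding noise to −log10 q and taking peaks out. The simulated lists did not differ in depth or tag size, so errors from these were not measured. The alternatives were the list length, strength, ranking value, flank, margin, overlap, start window and group membership. The work used matplotlib 3.10.9, scipy 1.17.1, numpy 2.4.6 and pandas 2.3.3 under Python 3.11.15.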

Additional observations from a re-analysis of the deposited data

Results flagged for a closer look

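Lhx5, a LIM homeobox gene set in the caudal group but used in more than 1 region, moved in opposite directions in the 2 sexes. It had 1 peak in deleted females against 3 in control females, a difference of −2, and 3 peaks in deleted males against 1 in control males, a difference of 2, all in the equal-length lists. The difference between the sexes was not tested, since each group has 1 list. The peaks concerned are weak. The single Lhx5 site in all 4 equal-length lists lay 552 bp from an end of the gene, with rank 80554 in deleted females, 82005 in control females, 48799 in deleted males and 74615 in control males. In the deposited lists Lhx5 had 3 peaks in deleted females, 5 in control females, 3 in deleted males and 1 in control males. Of the 50 members, 11 had more peaks after deletion in one sex and fewer in the other (22%), against 10.9% of 18077 protein-coding genes with a peak.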

How the results depend on the processing

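Of the values recomputed under another setting, 153 stayed within their limits and 33 moved. With a −log10 q of at least 10, the log2 ratio of member peaks was −0.45 in females and −0.31 in males, and that of forebrain peaks −0.53 (18 deleted against 26 control peaks) and −0.62 (15 against 23). The ratio of the whole lists under this limit was −0.35 in females and −0.27 in males. Over all settings the member ratio ran from −0.45 to 0.22 in females and from −0.31 to 0.27 in males.

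Lost and gained member peaks were 0 in both sexes under the other flanks, the 50% overlap and the ranking by fold enrichment. As deposited they were 68 and 25 in females (27.2% and 11.7%, against 31.2% and 12.7% of all candidates) and 52 and 32 in males (26.0% and 17.49%, against 25.5% and 12.8%). With that −log10 q limit they were 35 and 4 in females (31.2% and 4.88%, against 26.2% and 5.24%) and 24 and 6 in males (25.8% and 8%, against 22.7% and 6.04%). Ranked by pileup they were 4 and 1 in females (4.65% and 1.18%, against 1.71% and 1.24%) and 3 and 1 in males (3.75% and 1.23%, against 1.81% and 1.23%). With no margin they were 26 and 28 in females (15.95% and 16.6%, against 16.9% and 15.3%) and 25 and 42 in males (15.3% and 22.95%, against 18.7% and 16.9%). Lists of unequal length and peaks near the end of a list make calls by construction; for the pileup ranking the cause was not tested.

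Members with a start peak were 22, 19, 20 and 19 in deleted females, control females, deleted males and control males among the strongest 44079 peaks. With the −log10 q limit they were 22, 27, 21 and 24 in the same order. The rank calls were chosen after seeing the data. Ranked by fold enrichment, 0 of 105 member sites were at least 2-fold better in both sexes (0.966% of all sites) and 1, at Meis1, was at least 2-fold worse (1.03% of all). Members with at least 2 peaks more in both sexes were 0 as deposited (0.317% of genes with a peak), 0 with the −log10 q limit of 10 (0.118%) and 0 among the strongest 44079 (0.437%). Those with at least 2 fewer were 3 as deposited (Pbx3, Meis2 and Pax2; 6.88% of genes), 1 with the −log10 q limit (Meis2; 5.14%) and 0 among the strongest 44079 (0.431%).

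No paired analysis was possible because each group has 1 peak list of pooled libraries, and for the same reason no replicate was left out. The lists differ in depth and tag size, so weak peaks limit every count, most of all in deleted males.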

Other observations

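Other regional factors, outside the 50 genes, also held peaks. In deleted females, control females, deleted males and control males, 8 other forebrain genes held 33, 30, 33 and 34 peaks, with a start peak at 6, 6, 6 and 7 of them. For 6 other spinal genes the peaks numbered 14, 12, 11 and 12 in the same order, and the genes with a start peak 4, 3, 4 and 4. Nr2f2, a nuclear receptor of the ventral and caudal forebrain named after its values were seen, had 6 peaks in deleted females against 2 in control females and 5 in deleted males against 3 in control males. It alone of the 8 had more peaks after deletion in both sexes. At least 2 more in both sexes were found at 1.32% of 18077 protein-coding genes with a peak. Nr2f1 had 6, 6, 4 and 6 peaks and Vax1 had 2, 1, 1 and 4 in the same order of lists. Rax, a homeobox gene of the eye field and hypothalamus, had a start peak at rank 8401 in deleted females against 10635 in control females and 6290 in deleted males against 6825 in control males. Dbx2, a spinal progenitor homeobox gene, ranked 8931 in deleted females against 4534 in control females and 8117 in deleted males against 7242 in control males.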
